A study of Drosophila melanogaster with 4 samples.

Results

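Focal RNA polymerase II regions were defined as enriched regions of 2000 to 3000 bp on the autosomes 2L, 2R, 3L, 3R and 4 that were found once in each of 2 chromatin immunoprecipitation (ChIP-seq) replicates. They were selected from the list that the authors deposited for the replicate set, by width and by overlap of at least 1 bp with exactly 1 enriched region in the list of each replicate. The rule gave 1819 regions, which were 26.9% of the 6761 enriched regions of the set list and 33.7% of the 5393 on the autosomes. They held 4.33 Mb, or 20.6% of the autosomal sequence called enriched. The ChIP libraries, 2 replicates with an Abcam antibody to RNA polymerase II, and their 2 input libraries came from nuclei of heads of wild-type Oregon-R Drosophila melanogaster of mixed adult stage. The strain and stage were the same in all 4 samples, and no other condition was compared. Whole heads hold many cell types, sex is not given, and it is not stated if each replicate had its own collection of flies.

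RNA polymerase II transcribes protein-coding genes and many small non-coding RNA genes. In Drosophila it is known to collect at many promoters, where it can pause soon after initiation, and it also spreads over the bodies of genes that are being transcribed. In ChIP-seq, sites where it collects appear as short peaks, and long stretches of transcription appear as wide domains. No gene is named here, because the coordinates are those of FlyBase release 5 and no annotation or genome of that release was used, and for the same reason the head origin was not checked against marker genes.

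The score of a region is the authors' own and behaves as a log2 value with an offset that is not stated, so a difference of 1 between regions of a list is a doubling. Scores are compared within a list, and values of the 2 replicates are given side by side. The offsets of the 2 lists may differ. A higher score in 1 replicate, or a count of such regions, is therefore not read as a stronger signal there. The lists hold no read counts, so read depth is unknown and no counting interval is given. Regions are not replicates of a condition, so differences between classes of regions are described by medians and percentiles with no test.

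Most regions of this width on the autosomes met the partner condition. Of 1967 enriched regions of 2000 to 3000 bp, 1819 (92.5%) had exactly 1 partner in each replicate. Another 52 had a partner in replicate 2 alone, 63 in replicate 1 alone, and 24 had none. Only 9 were divided, 8 of them into 2 regions in replicate 2 and 1 into 2 regions in replicate 1. The 3 groups without a partner in both replicates had median set scores of 0.37 to 0.39, against 1.11 for the focal regions. The partner condition thus took away mostly weak regions, and the score range below is that of regions seen in both replicates. The 1819 regions matched 1819 different regions in replicate 2 and 1818 in replicate 1, since a neighbouring pair on 3R shared 1 wide partner there.

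The scores spanned a wide range at nearly constant width. Widths had a median of 2314 bp and an interquartile range of 2180 to 2566 bp. The median set score was 1.11 (lowest 0.24, highest 3.66), with an interquartile range of 0.64 to 1.89. The 90th percentile (2.49) exceeded the 10th (0.44) by 2.04, a 4.12-fold range. In the replicates the same span was 1.94 (replicate 1) and 2.12 (replicate 2), or 3.84-fold and 4.35-fold. Scores above 2 were held by 407 regions (22.4%) and scores above 3 by 20.

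By the widths of the set list, score and width rose together only below 2400 bp, and most closely at the narrow end. In the 523 regions of 2000 to 2199 bp the median score was 0.64, the highest was 1.86, and Spearman's correlation between width and score was 0.75 across regions. In the 624 regions of 2200 to 2399 bp, the largest class with 34.3% of the members, the median was 1.69 and 220 regions (35.3%) scored above 2. The correlation in this class was weaker, at 0.32. Above 2399 bp the link was gone. Spearman's correlation was -0.15 across the 250 regions of 2400 to 2599 bp, -0.05 across the 222 of 2600 to 2799 bp and -0.03 across the 200 of 2800 to 3000 bp. Their median scores were 1.60, 1.17 and 1.12, and each of these classes held strong and weak regions, with 10th percentiles of 0.46 to 0.50 and 90th percentiles of 2.36 to 2.79. Partner scores gave the same order of these classes, with medians of 0.62, 1.63, 1.51, 1.16 and 1.13 in replicate 1 and of 0.71, 1.79, 1.75, 1.34 and 1.29 in replicate 2. Across all 1819 regions Spearman's correlation between width and score was 0.37 in the set list. With the partners' own widths and scores it was higher, at 0.63 in replicate 1 and 0.69 in replicate 2.

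**Figure D1:**
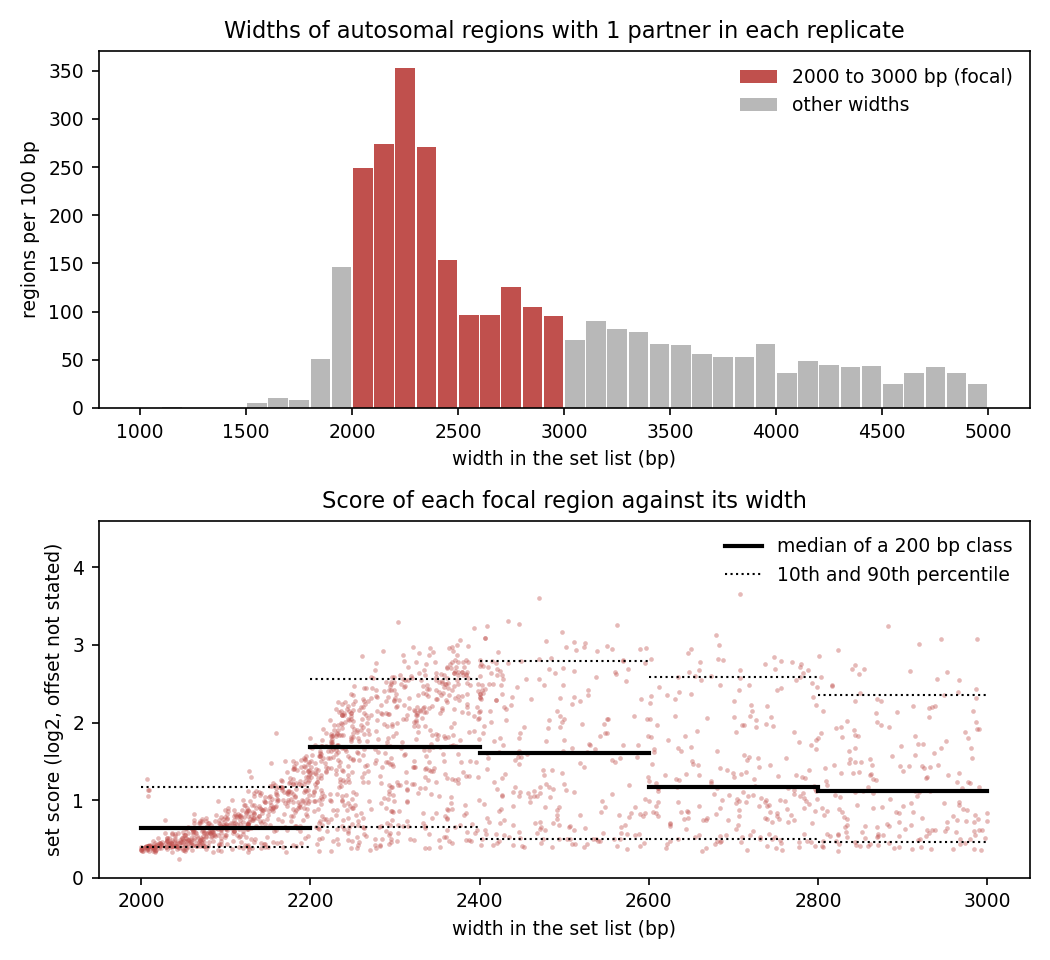
Upper panel, number of autosomal regions with exactly 1 partner in each replicate per 100 bp of width in the set list, with focal widths in red. Lower panel, set score (log2, offset not stated) of each of the 1819 focal regions against its width, with the median (solid) and the 10th and 90th percentiles (dotted) of each 200 bp class. Widths peak at 2200 to 2299 bp (353 regions), and the upper edge of the cloud climbs steeply from 2000 to 2400 bp.

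The lower limit of 2000 bp fell within the rising part of that relation. The 249 regions of 2000 to 2099 bp, just inside, had a median score of 0.47 (0.24 to 1.27), and the 146 regions of 1900 to 1999 bp with the same partner condition, just outside, had 0.29 (0.07 to 1.19). At the upper limit the 95 regions of 2900 to 3000 bp had a median of 1.12 (0.36 to 3.08), and the 72 of 3001 to 3100 bp had 1.28 (0.31 to 3.06). The lower limit therefore left out mostly weak regions, and the upper limit cut through a continuous distribution.

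Among the strongest regions of the whole set list, focal ones were frequent. They made up 4 of the 10 highest-scoring regions on all sequences, 51 of the first 100 and 263 of the first 500 (52.6%). The partner condition had already taken away mostly weak regions, and focal regions were 26.9% of the whole list. The 20 with scores above 3 were 2304 to 2988 bp wide (median 2487.5 bp). Their scores ran from 2.76 to 3.53 in replicate 1 and from 3.16 to 3.95 in replicate 2, and 19 of the 20 were higher in replicate 2.

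The highest-scoring focal region lay at 2R 8866874 to 8869581, with a set score of 3.66. Its partner scored 3.53 in replicate 1 and 3.84 in replicate 2, the first and the second place among focal regions. Second was 3R 10956276 to 10958745 with a set score of 3.61, a replicate 1 score of 3.38 (place 2) and a replicate 2 score of 3.95 (place 1). Both libraries thus had these 2 regions in their first 2 places. The following 3 places were all on 2L. At 15681954 to 15684387 the scores were 3.31 in the set, 3.27 in replicate 1 and 3.34 in replicate 2. At 2108663 to 2110966 they were 3.30, 3.27 and 3.32 in the same order, and at 15761385 to 15763830 they were 3.26, 3.31 and 3.25. Among focal regions these stood at places 5, 4 and 3 in replicate 1 and at places 10, 12 and 19 in replicate 2. The last of these was the only one of the 5 with a lower score in replicate 2. On 3L the highest was at 602705 to 605111, with 3.09 in the set, 2.97 in replicate 1 and 3.31 in replicate 2.

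The 5 lowest-scoring focal regions were between 2016 and 2171 bp wide and had set scores of 0.24 to 0.34. The lowest, at 2R 13472135 to 13474179, scored 0.24 in the set, 0.29 in replicate 1 and 0.37 in replicate 2. The others lay at 2L 4402589 to 4404625 and on 3R at 16848397 to 16850567, 27630436 to 27632451 and 4551978 to 4554062. Their partner scores ran from 0.34 to 0.50 in replicate 1 and from 0.36 to 0.58 in replicate 2. All 5 had partners narrower than 2000 bp in both replicates.

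Focal regions kept their order of strength between the replicates. Spearman's correlation of the partner scores was 0.94 across the 1819 regions, as a description of 2 libraries that share the chromatin protocol and processing. Ranks among focal regions differed by a median of 88 places of 1819, and by 100 or fewer for 997 regions (54.8%). The replicate 2 score exceeded the replicate 1 score in 1444 regions (79.4%), by a median of 0.16 with an SD of 0.21 over regions. This count and median depend on the unknown offsets of the 2 lists. The difference between the 2 scores was larger in stronger regions. In 5 classes of equal size by set score, the median difference was 0.08, 0.14, 0.15, 0.19 and 0.26 from the weakest to the strongest class. The median rank difference was 142.5 and 158 places in the 2 weakest classes, against 60 and 42.5 places in the 2 strongest. Ranks were thus least settled among weak regions, where many scores lie close together.

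**Figure D2:**
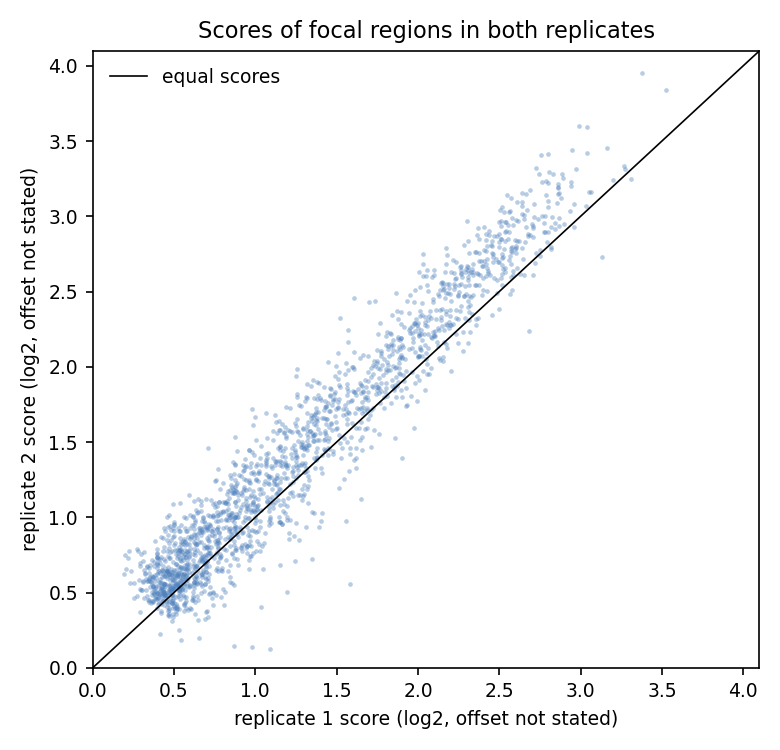
Score of the partner in replicate 2 against the score of the partner in replicate 1 (both log2, offset not stated), 1 point for each of the 1819 focal regions, with the line of equal scores. Most points (1444) lie above the line, further above it at high scores, and 11 lie at least 0.5 below it. Where points lie against the line depends on the offsets of the lists, which may differ.

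A few regions departed from this order. Rank differences above 500 places were found in 29 regions, and scores differed by 0.5 or more downwards in replicate 2 in 11 regions and upwards in 78. Unlike the ranks, these score counts depend on the offsets of the lists. The 5 largest rank differences all had the lower score in replicate 2. The largest, 1024 places, belonged to 2R 9219265 to 9222014, with 1.58 in replicate 1 and 0.56 in replicate 2. Here the partners were different stretches. The replicate 1 partner spanned 9221957 to 9225884 and the replicate 2 partner spanned 9219533 to 9221992, so that they had almost no sequence in common (0.567% of their joint span). A further region, 2L 8983823 to 8985855, scored 0.98 in replicate 1, as part of a stretch of 6328 bp, and 0.14 in replicate 2, where its partner was 1586 bp wide. The remaining 3 were 2L 21370257 to 21372357 with 1.09 in replicate 1 and 0.13 in replicate 2, 2R 11550718 to 11553542 with 1.19 and 0.50, and 2R 3473442 to 3475533 with 1.03 and 0.40. The partners of 2R 11550718 to 11553542 were 2840 bp (replicate 1) and 1988 bp (replicate 2) wide, and their midpoints differed by 413 bp. The region at 2L 21370257 to 21372357 had the lowest focal score of replicate 2 although it stood at place 905 in replicate 1. With 1 library on each side, none of these differences has a replicate check.

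The edges of focal regions typically lay close together in the 2 replicates. The left edge differed by a median of 46 bp and the right edge by 47 bp, in regions about 2300 bp wide. Both edges were within 100 bp in 1182 regions (65.0%), 1 edge only in 482 (26.5%) and neither in 155 (8.52%). The stretch shared by the 2 partners had a median of 95.5% of their joint span and reached 90% in 1448 regions (79.6%).

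The median displacements of the 2 edges were nearly equal and opposite. Replicate 2 regions began 29 bp further left (median) and ended 30 bp further right than replicate 1 regions, so that they were wider by a median of 50 bp. They extended beyond the replicate 1 region at both ends in 882 cases (48.5%) and lay within it at both ends in 213 (11.7%). In the remaining 724 (39.8%) the edges were not displaced in opposite directions. The midpoints had a median displacement of 0 bp, with 900 moved to the right and 909 to the left. The size of the midpoint displacement had a median of 28.5 bp and a 90th percentile of 185.5 bp, and it was at most 100 bp in 1471 regions (80.9%). Against the set list, replicate 1 regions began 32 bp inside the left edge and ended 33 bp inside the right edge (medians), and 1552 of them (85.3%) lay wholly inside. Replicate 2 regions were 11 bp inside at each end, and 687 (37.8%) lay wholly inside.

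**Figure D3:**
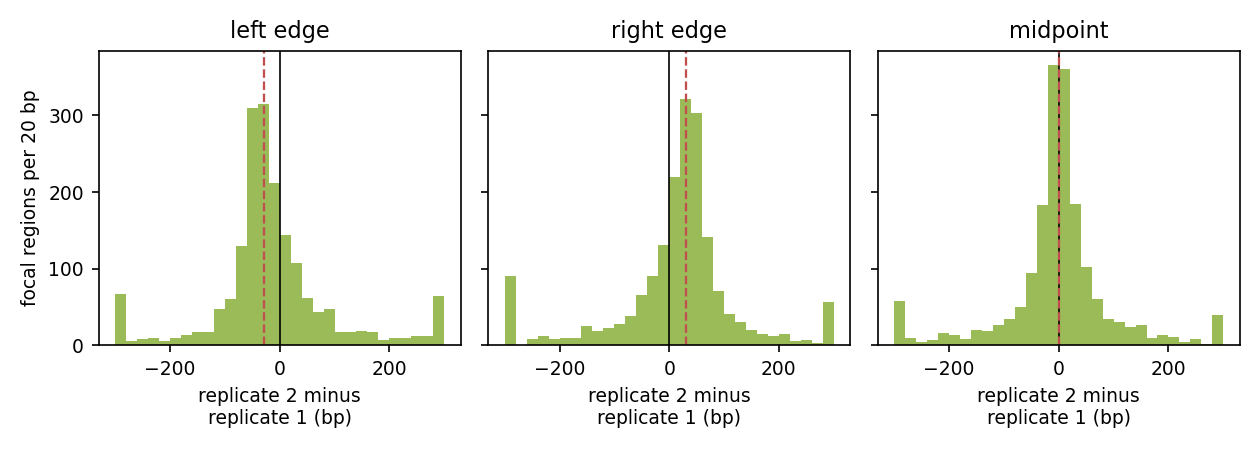
Displacement in bp of the left edge, the right edge and the midpoint, replicate 2 minus replicate 1, in bins of 20 bp over the 1819 focal regions. The dashed red line is the median (-29, 30 and 0 bp), and the outermost bars collect all larger displacements. The medians of the edges lie outwards in opposite directions and that of the midpoints lies at 0.

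Stronger focal regions had steadier centres. From the weakest to the strongest of the 5 score classes, the median midpoint displacement was 65.3, 31.8, 27.5, 20.3 and 17.5 bp. Both edges were within 100 bp in 39.3%, 60.4%, 68.6%, 76.4% and 80.2% of the regions. In the same order the replicate 2 regions were wider by a median of 17, 27, 39, 61 and 76 bp. The gain in width of replicate 2 thus grew with score, as the score difference did. Both partners were themselves 2000 to 3000 bp wide in 1464 regions (80.5%). A partner above 3000 bp was found in 39 regions, and these include the largest displacements. The region at 3R 7393873 to 7396163 (2291 bp, set score 1.95) lay at the end of a stretch of 13329 bp in replicate 2 and was 2295 bp wide in replicate 1. Its midpoint therefore differed by 5565 bp, although the scores of 2.07 and 1.95 were close. The region at 3R 6700982 to 6703249 likewise had a replicate 2 partner of 11452 bp and a displacement of 4608 bp, and its scores were 1.00 in replicate 1 and 1.67 in replicate 2. The third largest displacement, 3158 bp, was that of 2R 9219265 to 9222014, described above.

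Focal regions lay both in dense groups and alone. The gap to the nearest enriched region of any width in the set list had a median of 3146 bp, an interquartile range of 975.5 to 10205 bp and a 90th percentile of 24776 bp. Gaps below 1 kb were found for 462 regions (25.4%) and gaps of at least 20 kb for 226 (12.4%). The nearest other focal region was farther, at a median of 16278 bp. Measured for the partners within the shorter replicate lists, median gaps of 4133 bp (replicate 1) and 4023 bp (replicate 2) were found. The nearest region was itself focal in 640 cases (35.2%), close to the focal share among all autosomal regions (33.7%). It was narrower than 2000 bp in 20.5% of cases, where such regions were 21.0% of the autosomal list, and 10 kb or wider in 5.00%, where they were 5.21%. Focal regions thus had neighbours of all widths in about the proportions of the list. In the order of the list, 716 focal regions (39.4%) stood singly between regions of other kinds, 480 in runs of 2, and the remaining 623 in runs of 3 to 9.

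Isolated focal regions tended to score higher than crowded ones. Median set scores were 0.90, 0.93, 1.09, 1.03, 1.44 and 1.92 for gaps below 1 kb, of 1 to 2, 2 to 5, 5 to 10 and 10 to 20 kb, and of 20 kb or more. Scores above 2 were held by 46.0% of the regions in the last class and by 13.0% in the first. The classes overlapped widely, with an interquartile range of 1.11 to 2.48 at 20 kb or more and of 0.53 to 1.47 below 1 kb, and Spearman's correlation between gap and score across the 1819 regions was 0.26. The higher median at 20 kb or more than below 1 kb held on each of the 4 long arms, and chromosome 4 had no region with a gap of 20 kb or more. The median at 20 kb or more exceeded that below 1 kb by 1.13 on 2L, 0.73 on 2R, 0.83 on 3L and 1.21 on 3R. With scores and gaps of the partners taken within a replicate list, the medians were 1.85 at 20 kb or more and 0.88 below 1 kb in replicate 1, and 1.94 and 1.12 in replicate 2. Within each of the 5 width classes of 200 bp the difference was also positive, between 0.23 and 1.5.

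**Figure D4:**
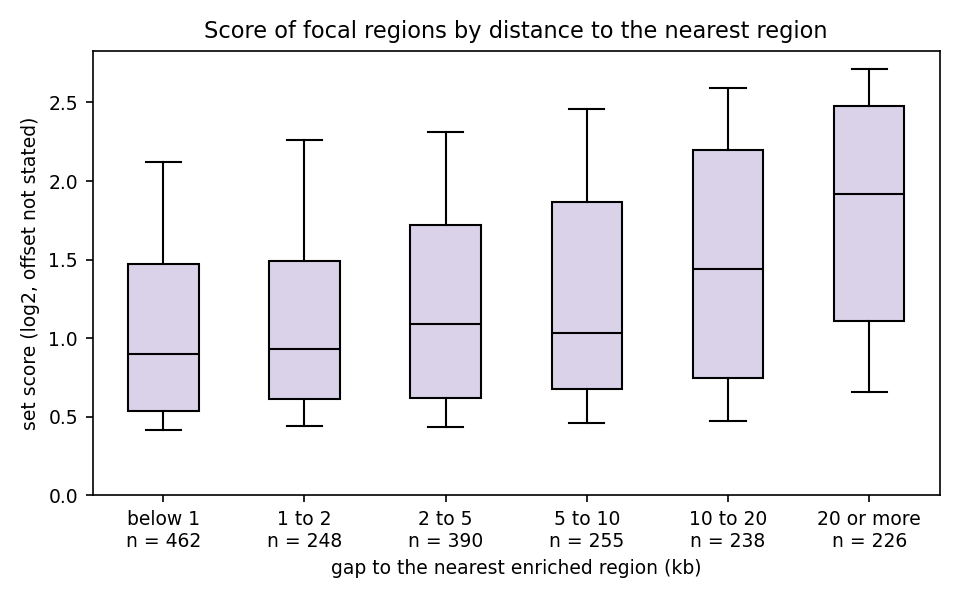
Set score (log2, offset not stated) of focal regions by the gap to the nearest enriched region in kb. Boxes give the median and quartiles, whiskers the 10th and 90th percentiles, and n the number of regions. The median is 1.92 at 20 kb or more and 0.90 below 1 kb, with wide overlap between the boxes.

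In the set list, width and score were more closely related in isolated regions than in crowded ones. Among the 226 with a gap of at least 20 kb, Spearman's correlation between width and score was 0.64, against 0.29 among the 462 with a gap below 1 kb. Limited to widths below 2400 bp, it was 0.85 across 174 regions and 0.66 across 239. Over all widths, with the widths and scores of the partners, it was 0.77 and 0.61 in replicate 1, and 0.76 and 0.67 in replicate 2. The contrast was thus smaller in the replicates than the 0.64 against 0.29 of the set list. In replicate 2, regions with gaps of 5 to 20 kb also had 0.77. The median score of isolated regions was 0.49 at 2000 to 2099 bp, 1.04 at 2100 to 2199 bp, 1.85 at 2200 to 2299 bp and 2.41 at 2300 to 2399 bp, in 20, 31, 69 and 54 regions. Partner medians gave the same order, from 0.42 to 2.32 in replicate 1 and from 0.63 to 2.60 in replicate 2. Isolated regions had steadier positions as well. Both edges were within 100 bp in 83.2% of them and in 50.4% of those with a gap below 1 kb, and the median midpoint displacement was 17 and 49.3 bp. Isolated regions were also the stronger ones, and the part of strength in these differences was not tested.

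The 5 focal regions farthest from any other enriched region were spread over all 4 long arms. The region at 3R 2011986 to 2014183 had 176.624 kb to its left and 154.596 kb to its right free of enriched regions, and scored 1.32 in the set, 1.19 in replicate 1 and 1.46 in replicate 2. At 3L 13658565 to 13660929, a focal region with a nearest gap of 134.411 kb scored 1.70, 1.68 and 1.79. These 2 were of middling strength. The region at 2R 19090196 to 19092560, with a nearest gap of 122.234 kb, scored 2.75, 2.58 and 2.94. The region at 2L 17259564 to 17261800 had a nearest gap of 120.654 kb and scores of 1.98, 1.88 and 2.13. The fifth, at 3R 11490647 to 11493185, had a nearest gap of 116.364 kb and scores of 2.92, 2.85 and 3.09. In all 5 the 2 replicates placed both edges within 100 bp of each other.

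The scores of neighbouring focal regions showed little relation to each other. Across all 1814 pairs of successive focal regions on an arm, Spearman's correlation of the 2 set scores was 0.06, and the scores differed by a median of 0.70. In the 120 pairs less than 2 kb apart Spearman's correlation was 0.10 in the set, 0.02 in replicate 1 and 0.19 in replicate 2, and the median difference was 0.60. The closest pairs show this contrast. On 3R the regions 14986270 to 14988835 and 14988862 to 14991153 were 26 bp apart. The first scored 0.50 in the set, 0.55 in replicate 1 and 0.67 in replicate 2. The second scored 2.32, 2.16 and 2.52. On 2L the regions 19582798 to 19585502 and 19585555 to 19588391, 52 bp apart, had set scores of 0.68 and 1.64, with 0.54 and 1.46 in replicate 1 and 0.91 and 1.86 in replicate 2. In both pairs each replicate kept the stretches apart and gave them the same order. The third pair, 66 bp apart at 3R 10042311 to 10044685 and 10044752 to 10046845, had set scores of 1.22 and 0.67. It was a single region of 4495 bp with a score of 0.96 in replicate 1, and 2 regions with 1.19 and 0.72 in replicate 2.

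Among runs of 6 or more focal regions with no other enriched region between them, 1 was uniformly strong. It held 7 regions over 130.229 kb at 3R 8292297 to 8422525, with set scores of 2.18 to 2.96, replicate 1 scores of 1.97 to 2.87 and replicate 2 scores of 2.43 to 3.15. The other 5 runs each mixed weak and strong regions, with lowest set scores of 0.39 to 0.43 and highest of 1.65 to 2.66. The longest of them, 9 regions over 448.036 kb at 3L 18106456 to 18554491, had set scores of 0.40 to 2.52. These runs were singled out after their values were seen.

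The 4 long arms carried focal regions at similar density. The 1819 regions divided into 542 on 3R, 427 on 3L, 419 on 2R, 403 on 2L and 28 on 4. Density was 19.8 per Mb on 2R, 19.4 on 3R, 17.5 on 2L and 17.4 on 3L. To measure the spread between replicates, the same width and partner condition was applied within each replicate list, which gave 2072 regions in replicate 1 and 2164 in replicate 2. By these lists 2R had 23.7 ± 1.27 regions per Mb, 3R had 21.8 ± 0.279, 2L had 20.7 ± 1.01 and 3L had 20.3 ± 0.403 (SD, n = 2). The arms 2L and 3L were not distinct beyond that spread, and 2R stood above both in each replicate. Focal regions were 32.7% to 34.9% of the enriched regions on each long arm. Their median set score was between 1.07 on 3R and 1.18 on 2L, and scores above 2 made up 22.0% to 24.4%.

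Focal regions on chromosome 4, a short autosome rich in repeated sequence, were weaker than on the long arms. The 28 there gave 20.7 per Mb, against 18.5 per Mb on the long arms together, while regions of the focal width in the replicates' own lists had 26.6 per Mb in replicate 1 and 23.7 per Mb in replicate 2 on chromosome 4, against 21.1 and 22.1 on the long arms. The 28 were 23.1% of the enriched regions of chromosome 4, against 34.0% on the long arms. Their median width was 2586 bp, against 2312 bp, and the nearest enriched region lay at a median of 957.5 bp, against 3187 bp. The median set score on chromosome 4 was 0.49 (0.35 to 1.34), against 1.12 on the long arms, and no region there scored above 2. In replicate 1 the partner medians were 0.53 on chromosome 4 and 1.11 on the long arms, and in replicate 2 they were 0.61 and 1.24. The strongest, at 853600 to 856029, scored 1.34 in the set, 1.30 in replicate 1 and 1.46 in replicate 2. Edges agreed less well there. Both were within 100 bp in 7 of the 28 regions on chromosome 4 (25%), against 65.6% on the long arms. Spearman's correlation of the partner scores was 0.56 on chromosome 4, where scores covered a narrower range, and 0.94 on the long arms. The score difference between replicates did not vary more there, with an SD over regions of 0.178 against 0.212 on the long arms. Positions and ranks were also less steady in weak regions among all focal regions, but edges on chromosome 4 differed more. In the weakest score class (0.24 to 0.57), both edges were within 100 bp in 39.3% of the regions. Left and right edges in that class differed by medians of 80.5 and 91.5 bp, against 164 and 142 bp on chromosome 4. The part of score in these differences was not tested.

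Pooled over the 4 long arms, focal regions were fewest at the centromeric end. With each arm cut into 10 equal parts, the pooled density was between 16.7 and 21.1 per Mb in the first 9 parts from the telomere, and 11.8 per Mb in the last. By the replicate lists the last part held 14.0 ± 0.293 per Mb and the other 9 held between 19.6 ± 0.366 and 24.9 ± 1.17 (SD, n = 2). Single arms varied more. On 2L the parts 6 to 8 held 14.3, 13.5 and 13.0 per Mb, no more than the 14.3 of its last part. Low values also stood at part 3 of 2R (14.2) and part 5 of 3L (13.4), whereas part 3 of 3R held 27.2. The last part of 3R held 16.5, the lowest on that arm but close to the 16.8 of its part 6. All enriched regions thinned out at the centromeric end too, so that the pooled focal share in the last part was 31.0%, near the 32.0% to 37.3% of the other parts. In the 2 Mb at the centromeric end, 3L had 6 focal regions per Mb, against 18.4 beyond it. On 2R the values were 9 at that end and 20.9 beyond it, on 2L 13 and 17.9, and on 3R 21 and 19.3. In the replicate lists 3R had 23.3 ± 1.06 at that end against 21.7 ± 0.218 on the rest, and the other 3 arms kept the lower density at that end in both replicates. Median set scores at the centromeric end were lower on 2R (0.77 against 1.16) and higher on 3R (1.28 against 1.06), as they were in each replicate. On 3L, with 12 regions, they were 0.95 against 1.17 in the set, 0.84 against 1.18 in replicate 1 and 1.23 against 1.28 in replicate 2. On 2L they were 1.12 against 1.198, 1.14 against 1.18, and 1.15 against 1.30 in the same order, so that the size of the difference on 2L and 3L depended on the replicate.

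**Figure D5:**
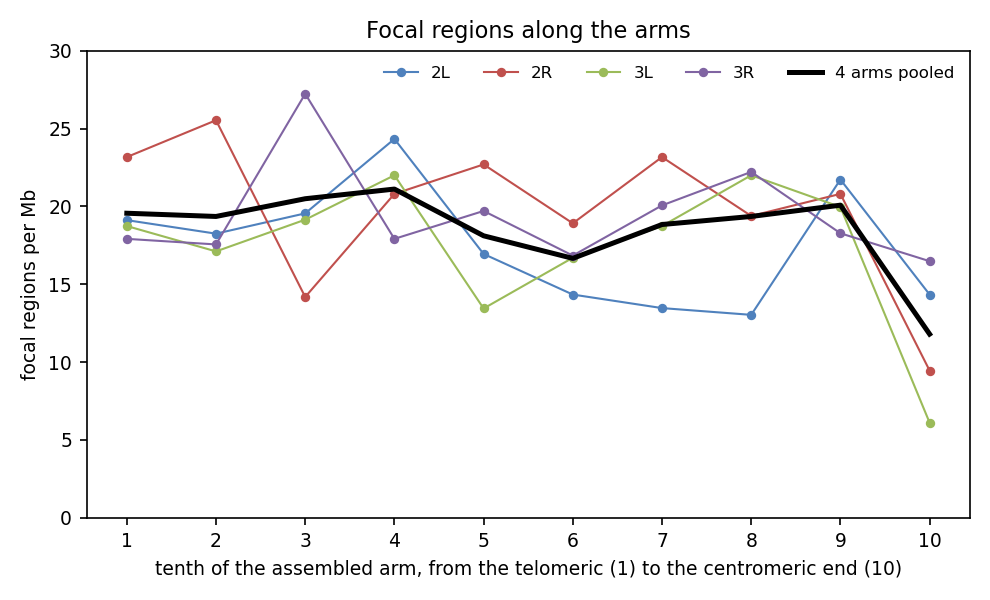
Focal regions per Mb in 10 equal parts of each assembled long arm, from the telomeric end (1) to the centromeric end (10), for 2L, 2R, 3L and 3R and for the 4 arms pooled (black). The pooled density is 16.7 to 21.1 per Mb in the first 9 parts and 11.8 in the last. On 3R the last part holds 16.5 per Mb, the lowest of its 10 parts but close to the 16.8 of part 6.

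In bins of 1 Mb no part of the long arms was without a focal region. The 95 full bins held 3 to 39 each, with a median of 18 and an interquartile range of 16 to 22. The variance of the counts was 1.57 times their mean. The densest bin, 20 to 21 Mb on 3R, held 39 focal regions, which were 46.4% of its enriched regions, with a median score of 0.89. The next, 7 to 8 Mb on 3R, held 31, with a median score of 0.86. The sparsest, 23 to 24 Mb on 3L, held 3. The bins with few regions could be strong. At 14 to 15 Mb on 2L, 10 of 19 enriched regions were focal, with medians of 1.96 in the set, 1.80 in replicate 1 and 2.17 in replicate 2, and the bin at 17 to 18 Mb, with 10 of 26, had 1.96, 1.85 and 2.18. The bin at 8 to 9 Mb on 3R, which holds the strong run of 7, had a median of 2.12 in the set, 1.97 in replicate 1 and 2.21 in replicate 2. The bins were chosen after their values were seen.

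Set beside wider autosomal regions that also had exactly 1 partner in each replicate, focal regions had the widest score range of the 3 classes. Their centres were also the steadiest in bp, and displacements were not scaled to width. The span from the 10th to the 90th percentile of the set score was 2.04 in focal regions, 1.34 in the 579 intermediate regions of 5 kb to below 10 kb and 1.16 in the 96 broad regions of 10 kb or more. Their median scores were 1.11, 1.39 and 1.66, so the focal class had the lowest median. Scores above 3 were held by 20 of the 1819 focal, 4 of the 579 intermediate and 0 of the 96 broad regions. They were also held by 12 of the 1061 regions above 3000 and below 5000 bp. Scores above 2 made up 22.4% of focal, 14.9% of intermediate and 28.1% of broad regions, and 17.0% of those above 3000 and below 5000 bp. The median midpoint displacement was 28.5 bp in focal, 153 bp in intermediate and 131.5 bp in broad regions, and both edges were within 100 bp in 65.0%, 20.2% and 25%. Spearman's correlation of the partner scores was 0.94, 0.91 and 0.88. The 1061 regions above 3000 and below 5000 bp, next in width to the focal ones, had a score span of 1.74 and a correlation of 0.95 (0.948, against 0.943 in focal regions). Their median midpoint displacement was 125 bp, with both edges within 100 bp in 24.6%. Division in a replicate affected 0.458% of all autosomal regions of focal width, 32.5% of those of intermediate width and 65.8% of broad ones. It affected 4.96% of those above 3000 and below 5000 bp. Below 2000 bp it affected 0.088%, where only 19.6% had a partner in both replicates. The nearest enriched region was at a median of 3146 bp from focal, 1486 bp from intermediate and 1087 bp from broad regions. It was at 1608 bp from regions above 3000 and below 5000 bp, and at 2535 bp from those below 2000 bp. Isolated regions of the wider classes also scored higher. The median at 20 kb or more exceeded that below 1 kb by 1.02 in focal regions. It did so by 0.85 in regions above 3000 and below 5000 bp, of which 54 were that isolated. The difference was 0.46 in intermediate regions, of which 16 were that isolated, and 0.34 in broad regions, of which 5 were. Regions below 2000 bp with the same partner condition went the other way. Their median was 0.25 in the 25 isolated regions and 0.28 in the 54 with a gap below 1 kb. Since width defines the classes, these differences are descriptions.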

How the data were processed

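The measurements were 3 lists of regions from RNA polymerase II ChIP-seq of adult fly head nuclei, 1 for each of 2 ChIP replicates and 1 for the replicate set. Each of the 2 input libraries served 1 ChIP library, per the labels. Per the file headers, positions refer to FlyBase release 5. They count from 1. The aligner named in the submitters' processing notes is Bowtie 0.12.7. How regions were called, with what threshold, and how the set list was made from both replicates is not stated in the sources used here. Widths and edges depend on these steps.

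The deposited score was taken as log2. With the most common score of a list taken as 0, antilogs to base 2 were whole-number ratios (largest denominator 300, tolerance 1e-10 relative) for 22.9% to 48.2% of the regions, against at most 0.265% with base e or 10.

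Overlap, gap (bases between regions), displacement and Spearman's correlation were computed with Python 3.11.15, numpy 2.4.6 and pandas 2.3.3, and figures with matplotlib 3.10.9. The functions were tested on simulated lists. Partners of a region are the enriched regions of a replicate list that overlap it. Regions called depleted were left out. Ranks count from the highest score. No test of significance was run, because there is 1 condition and regions are not replicates. Named regions are the 5 highest, the 5 lowest, the 5 with the largest rank difference, the highest of each arm, the 5 farthest from another region, the 3 closest pairs and the 3 with the largest midpoint displacement. The members and these rules were chosen with earlier results of these data known. Alternatives were other width limits, stricter or looser overlap, either replicate left out, chromosome 4 left out, the upper 50% of the list by score, and, added after the data were seen, partners of 2000 to 3000 bp only.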

Additional observations from a re-analysis of the deposited data

How the results depend on the processing

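No paired analysis was possible because the input libraries have no values here and no test was made between groups. The number of focal regions (1819) moved by more than 1.5 times with widths of 2200 to 2800 bp (1097) and in the upper 50% of the list by score (1062). The other values were compared with the SD between replicates. For Spearman's correlation it was the SD of 0.983 and 0.981, the correlations of the set score with replicates 1 and 2. For edge displacement it was that of 34 and 24 bp, the left edge displacements of replicates 1 and 2 from the set. Neither measures the spread of the correlation or displacement between the replicates themselves. With widths of 1500 to 3500 bp the median score was 0.995, the gap 2770 bp, the density 24.8 per Mb and Spearman's correlation of the partner scores 0.948. With 2200 to 2800 bp they were 1.586, 3401 bp, 11.2 per Mb and 0.965. In the upper 50% by score they were 1.730, 4341 bp, 10.8 per Mb and 0.940, and with partners of 2000 to 3000 bp only 1.361, 3593.5 bp, 14.9 per Mb and 0.954. Spearman's correlation was 0.945 with 50% reciprocal overlap, 0.941 with 1 or more partners and 0.944 without chromosome 4, so it stayed between 0.940 and 0.965 in all these settings. Leaving out replicate 1 or replicate 2 from the partner condition gave 1872 and 1890 regions, median scores of 1.08 and 1.07, gaps of 3008 and 3036.5 bp and densities of 19.1 and 19.3 per Mb. The replicate comparison cannot be made in those 2 settings. The median edge displacement (46 bp) stayed between 42 and 51 bp in the settings that allow it. The cause of these shifts was not tested. The lists give no read counts, so the effect of depth on weak regions was not tested.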

Other observations

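Among the 148 autosomal regions of 2000 to 3000 bp without exactly 1 partner in each replicate, the highest score was 2.04, at 2L 21458281 to 21460297 (2017 bp). It ranked 834 in the set list, yet no enriched region of either replicate overlapped it. The nearest regions lay 3063 bp away in replicate 1 and 3031 bp away in replicate 2. In the set list the next enriched region to its right, after a gap of 3045 bp, was focal. It began a series of successive focal regions with nearly the same width and nearly equal gaps. The last of this series had the highest score (1.27) among focal regions of 2000 to 2099 bp. The region at 2L 21458281 to 21460297 was singled out after its value was seen. Neither its absence from the replicate lists nor the even spacing was tested for a cause. The next highest, at 3L 4176660 to 4179472 with a score of 1.53, had 1 partner in replicate 1 and 2 in replicate 2.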
